A study of Mus musculus with 20 samples.

Results

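Of 9 genes in common use as marks of cellular senescence or as inhibitors of the cell cycle, 7 were measured here in mouse kidney: the INK4 inhibitors Cdkn2b, Cdkn2c and Cdkn2d, the CIP/KIP inhibitor Cdkn1b, and the markers Lmnb1, Glb1 and Hmgb1. They were taken by name from a table of 19940 genes. Cdkn2a and Il6, the other two genes named, were not analysed here. Of the 7 measured, 6 had enough reads to be tested together with all other genes, and Cdkn2b, which had few reads in every library, was described separately.

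The libraries were made from whole kidneys of 20 male mice, 1 library per mouse and 5 mice in each of 4 groups. Tert+/+ mice at 7 weeks and at 47 weeks had both copies of the gene for the reverse transcriptase of telomerase, and the Tert-/- mice of the same ages lacked both and were of generation 3 (G3). No treatment beyond genotype and age is named in the labels, and strain and litter are not given there. The series title names short telomeres, epithelial to mesenchymal transition and kidney fibrosis, and the groups set genotype at each age and age in each genotype against each other. Mice of 7 weeks are called young and mice of 47 weeks old below.

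Cells that divide for long without telomerase, or that are damaged, can leave the cell cycle for good, a state called senescence. INK4 proteins bind the kinases CDK4 and CDK6 and keep cyclin D from activating them, while CIP/KIP proteins such as p27 (Cdkn1b) and p21 (Cdkn1a) act on cyclin and CDK complexes, CDK2 above all. Both routes leave the retinoblastoma protein unphosphorylated and the E2F targets silent. Senescent cells are also known for loss of lamin B1 (Lmnb1) from the nuclear envelope, for lysosomal beta-galactosidase activity at an unusual pH, which the Glb1 product carries, for release of the chromatin protein HMGB1 (Hmgb1) from the nucleus, and for secreted cytokines such as interleukin 6. Several of these marks are defined on the protein or on its activity, and the values here are RNA levels of a whole organ, in which fewer cells of a type and less RNA per cell cannot be told apart.

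Libraries held 7161690 to 9757594 reads assigned to genes, and each value below is a normalized read count, that is, reads divided by 1 scale factor per library. A value from 3 reads is 2.49 to 3.38 normalized counts, depending on the library. Tert itself was counted at 4.21 to 15.7 in young and 7.25 to 16.9 in old Tert+/+ kidneys, and at 0.979 to 5.65 in young and 5.11 to 8.31 in old G3 Tert-/- kidneys, so the genotypes overlapped at both ages, and the sources used here do not give whether the counted 3′ end lies in the deleted part. Markers of kidney epithelium, podocytes, endothelium, fibroblasts and macrophages were all above 0 in every group. 2 libraries, Tert+/+ young replicate 1 and Tert+/+ old replicate 4, stood apart: the leading principal component (22.0% of the variance) placed them at 67.5 and 56.6 and the other 18 between -39.4 and 21. Mitochondrially encoded genes took 22.32% of the reads in the first and 27.45% in the second of these 2 libraries, in a range of 22.32% to 32.67% over all 20. The labels name no batch, and the numbers in the library titles run in separate blocks for each group, so a batch of that kind and the groups cannot be told apart. Nothing in the labels says how the mice are related. The p-values set differences between groups against the spread of mice within groups, and treat the 20 mice as independent.

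1 of the 6 tested genes passed a test. Glb1 fell with age in G3 Tert-/- kidneys, by 0.56 on the log2 scale, and no other tested gene of the set passed in any comparison. Each comparison was fitted over 14630 genes with limma, and an adjusted p under 0.05 passed. None of the 6 passed between the genotypes at 7 weeks, where 0.0% of all genes passed; 1 had an unadjusted p under 0.05, as did 10.7% of all genes. At 47 weeks none passed between the genotypes, beside 0.0957% of all genes, and 2 had an unadjusted p under 0.05, beside 6.58%. With age in Tert+/+ kidneys none passed, beside 0.649% of all genes, and none had an unadjusted p under 0.05, beside 10.6%. With age in G3 Tert-/- kidneys 1 of 6 passed, beside 2.24% of all genes, and the same gene alone had an unadjusted p under 0.05, beside 14.9%. For the interaction of genotype and age, that is, the change of the genotype effect between the ages, none passed, beside 0.00684% of all genes, and 1 had an unadjusted p under 0.05, beside 6.22%. edgeR and DESeq2 on the recovered reads also passed none of the 6 at 7 weeks and none with age in Tert+/+ kidneys. At 47 weeks and for the interaction DESeq2 passed 1, which was Glb1, and edgeR passed none. Of all genes, DESeq2 passed 52 and 7 there. The median log2 difference of the 6 genes was 0.09, -0.14, 0.04 and -0.18 in the 4 comparisons of groups, in the same order, and that of all genes was 0.001, 0.01, 0.004 and 0.003.

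**Figure D1:**
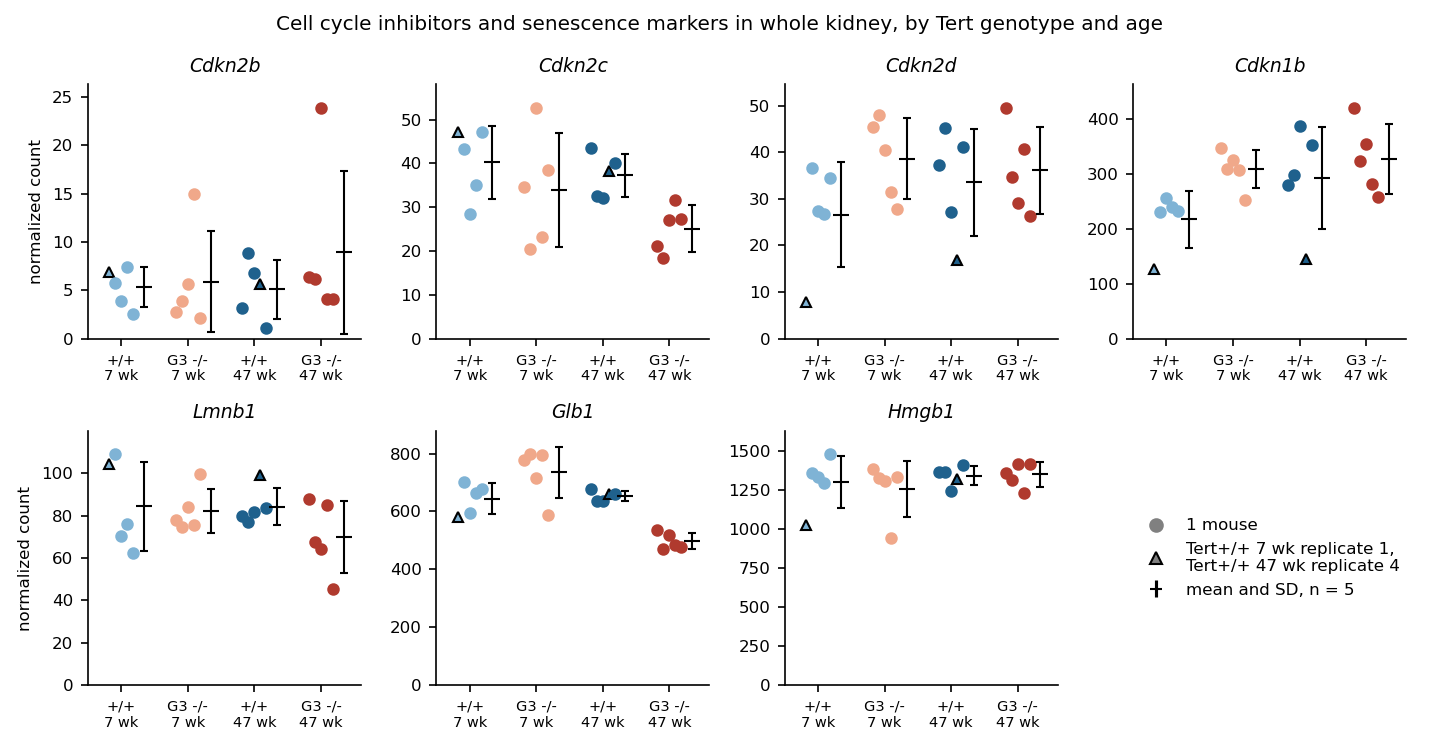
Normalized read counts of the 7 measured genes (vertical axes, from 0, a scale of its own per gene) in the 20 libraries, by group (horizontal axes: genotype and age in weeks); points are mice, bars are means with SD over 5 mice, and triangles are Tert+/+ young replicate 1 and Tert+/+ old replicate 4. The 5 old G3 Tert-/- kidneys sit at 471 to 538 for Glb1, below the other 15, and the 2 triangles are the lowest points for Cdkn1b and Cdkn2d.

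Cdkn2b, which encodes p15 and lies beside Cdkn2a on chromosome 4 (GRCm38, 89306299 to 89311039, minus strand), was near the limit of counting. It had 129 reads in all 20 libraries together, between 1 and 23 per library, was at 3 reads or fewer in 5 libraries and at 0 in none. In young Tert+/+ kidneys it was 6.89, 5.79, 3.91, 7.39 and 2.52, and in young G3 Tert-/- kidneys 2.73, 3.91, 5.65, 14.9 and 2.14. In old Tert+/+ kidneys it was 3.11, 8.87, 6.82, 5.63 and 1.11, and in old G3 Tert-/- kidneys 6.34, 6.14, 23.9, 4.08 and 4.04. A single mouse in each G3 Tert-/- group was high, with 18 and 23 reads, and the remaining mice of those groups lay within the range of the Tert+/+ mice. These were the only 2 libraries at a normalized count of 10 or more, and the test across all genes asked for 5.

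Group means of Cdkn2b were 5.30 ± 2.05 and 5.88 ± 5.24 in young Tert+/+ and G3 Tert-/- kidneys, and 5.11 ± 3.05 and 8.90 ± 8.45 in old ones (SD, n = 5 each). An exact two-sided permutation test of mean log2(normalized count + 1) over the 252 ways to divide 10 mice gave p = 0.889 for genotype at 7 weeks and p = 0.397 at 47 weeks. For age the exact test gave p = 0.73 in Tert+/+ and p = 0.413 in G3 Tert-/- kidneys, and adjusted over these 4 tests the values were 0.825 to 0.889. The smallest p such a test can give is 0.00794. None of the 4 differences of Cdkn2b passed.

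Cdkn2c, which encodes p18 (chromosome 4, 109660876 to 109667189, minus strand), had its lowest levels in old G3 Tert-/- kidneys, without passing. It was 47.2, 43.4, 28.4, 35.1 and 47.1 in young Tert+/+ kidneys and 34.5, 20.6, 52.8, 23.2 and 38.6 in young G3 Tert-/- kidneys. It was 43.5, 32.5, 32.1, 38.3 and 40.1 in old Tert+/+ kidneys and 21.1, 18.4, 27.01, 31.7 and 27.3 in old G3 Tert-/- kidneys. All 5 old G3 Tert-/- kidneys were below all 5 old Tert+/+ kidneys, though only narrowly, at a highest value of 31.7 against a lowest of 32.1. Over all genes, 1.44% had old G3 Tert-/- kidneys wholly below old Tert+/+ kidneys.

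The means of Cdkn2c ran from 40.3 ± 8.27 in young Tert+/+ through 37.3 ± 4.92 in old Tert+/+ and 33.9 ± 12.9 in young G3 Tert-/- to 25.1 ± 5.29 in old G3 Tert-/- kidneys (SD, n = 5 each). For genotype at 47 weeks the log2 difference was -0.57 (SE 0.23, 95% interval -1.04 to -0.10), with an unadjusted p of 0.0209 and an adjusted p of 0.656 in limma. The other differences did not pass either. They were -0.29 for genotype at 7 weeks (SE 0.23, adjusted p = 0.614), -0.09 for age in Tert+/+ (adjusted p = 0.931) and -0.37 for age in G3 Tert-/- kidneys (adjusted p = 0.485). Neighbours in the order of the means overlapped throughout.

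Cdkn2d, which encodes p19-INK4d (chromosome 9, 21288410 to 21291407, minus strand), was counted at a like depth and varied mostly within groups. It was 7.87, 36.6, 27.4, 26.8 and 34.5 in young Tert+/+ kidneys and 45.4, 48.0, 40.5, 31.6 and 27.9 in young G3 Tert-/- kidneys. In old mice it was 37.3, 45.3, 27.3, 16.9 and 41.2 with Tert and 49.6, 34.8, 29.1, 40.9 and 26.3 without it. The 2 lowest values, 7.87 and 16.9, were those of the 2 libraries that stood apart on the first principal component. Every pair of groups overlapped.

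Means of Cdkn2d were 26.6 ± 11.3, 38.7 ± 8.69, 33.6 ± 11.5 and 36.1 ± 9.40 in young Tert+/+, young G3 Tert-/-, old Tert+/+ and old G3 Tert-/- kidneys (SD, n = 5 each). The widest difference, for genotype at 7 weeks, was 0.65 on the log2 scale (SE 0.33, 95% interval -0.03 to 1.32, adjusted p = 0.475), and without both libraries that stood apart it was 0.28 (adjusted p = 0.722). At 47 weeks the genotype difference was 0.14 (adjusted p = 0.953), and -0.08 without those libraries. For age Cdkn2d gave 0.40 in Tert+/+ kidneys (adjusted p = 0.703), and 0.03 without Tert+/+ young replicate 1 and 0.62 without Tert+/+ old replicate 4. It gave -0.10 in G3 Tert-/- kidneys (adjusted p = 0.927). What makes the 2 libraries stand apart was not tested.

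Cdkn1b encodes p27, which holds quiescent cells in G1 (chromosome 6, 134920401 to 134925513, plus strand). Its levels were lowest in young Tert+/+ kidneys and nowhere passed. In young Tert+/+ kidneys it was 127, 231, 256, 240.3 and 231, and in young G3 Tert-/- kidneys 346, 308, 326, 307 and 253. The old Tert+/+ kidneys had 279, 298, 388, 145 and 353, and the old G3 Tert-/- kidneys 420.4, 322, 354, 281 and 258. Young G3 Tert-/- kidneys were higher than young Tert+/+ kidneys except for 1 pair of mice, at 253 and 256, and the low values 127 and 145 again came from the 2 libraries that stood apart.

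Means of Cdkn1b were 217 ± 51.4 in young Tert+/+, 292 ± 92.9 in old Tert+/+, 308 ± 34.6 in young G3 Tert-/- and 327 ± 64.1 in old G3 Tert-/- kidneys (SD, n = 5 each). For genotype at 7 weeks the log2 difference was 0.54 (SE 0.22, 95% interval 0.09 to 0.98), with an unadjusted p of 0.0204 and an adjusted p of 0.435 in limma. Without both libraries that stood apart the same Cdkn1b difference was 0.36 (adjusted p = 0.506). Genotype at 47 weeks gave 0.21 (adjusted p = 0.891), and -0.02 without those libraries. For age it was 0.39 in Tert+/+ (adjusted p = 0.531) and 0.07 in G3 Tert-/- kidneys (adjusted p = 0.922). Neighbours in this order of means overlapped. Only young Tert+/+ and old G3 Tert-/- kidneys did not, narrowly, at a highest value of 256 against a lowest of 258. These groups differ in both age and genotype and were not compared in the fit. The share of all genes without overlap between them was not counted.

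Across the 20 libraries Cdkn1b and Cdkn2d moved together, with Pearson's r = 0.80 on the log2 scale and 0.76 once group means were taken out. Without the 2 libraries that stood apart it was 0.40 over 18 libraries. The points share their libraries and scale factors, so these values describe the libraries and carry no test. Among the other 14 pairs of the 6 tested genes, r lay between -0.46, for Cdkn2c with Cdkn1b, and 0.47, for Cdkn2d with Hmgb1.

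**Figure D2:**
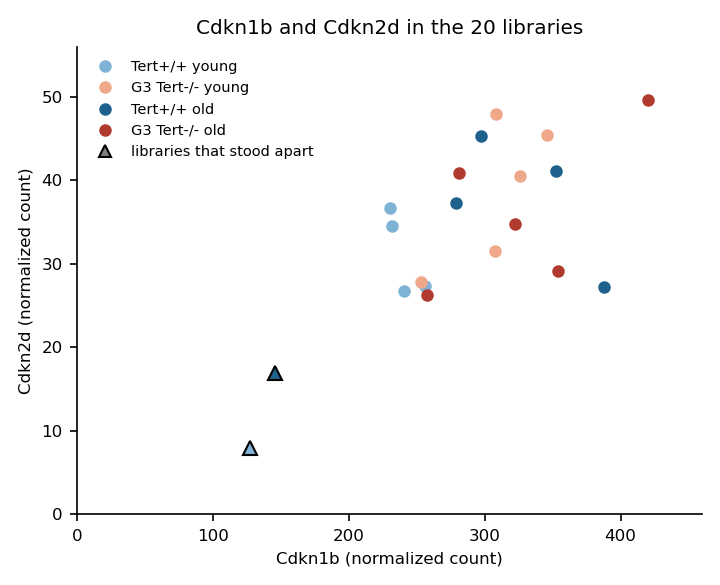
Cdkn2d against Cdkn1b (normalized read counts, both axes from 0) in the 20 libraries, coloured by group, with triangles for Tert+/+ young replicate 1 and Tert+/+ old replicate 4. The triangles, at 127 and 145 for Cdkn1b, lie apart from the other 18 points, and r falls from 0.80 to 0.40 without them.

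The other CIP/KIP inhibitors, Cdkn1a and Cdkn1c, gave no pass in limma among 10 results of these 2 genes. Cdkn3, listed with them, was not tested. Of the 10 results, 3 had an unadjusted p under 0.05, beside 9.81% of the results of all genes over the same 5 comparisons. edgeR passed none and DESeq2 passed 1, for genotype at 47 weeks, where it passed 52 of all genes. Cdkn1a, which encodes p21, was 81.8 to 170.0 in old Tert+/+ and 225 to 296 in old G3 Tert-/- kidneys, without overlap, beside 0.875% of all genes higher in that way, a log2 difference of 1.06 (SE 0.26, adjusted p = 0.167) that DESeq2 passed with an adjusted p of 0.0321. Without both libraries that stood apart, limma passed Cdkn1a in that comparison as well, at 1.19 (adjusted p = 0.0207). Cdkn1c, which encodes p57, differed most between genotypes at 7 weeks, by 0.35 (SE 0.11, adjusted p = 0.435).

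Downstream of the inhibitors, none of 21 tested genes of G1 cyclins, their kinases, the retinoblastoma family and E2F factors passed in any comparison in limma, edgeR or DESeq2, and 6 of 105 results (5.71%) had an unadjusted p under 0.05, beside 9.81% of all genes. The smallest p-values belonged to E2f2, an activating E2F, whose genotype effect differed between the ages by -1.04 (SE 0.32, adjusted p = 0.743), more negative at 47 weeks, and to E2f5, a repressive E2F, at -0.40 for genotype at 7 weeks (adjusted p = 0.435). Of 13 genes linked to the turnover of p27 or to transcription of Cdkn1b, none passed by any of the 3 tools. Among their 65 results, 2 (3.08%) had an unadjusted p under 0.05, beside 9.81%. These were Skp1a, a subunit of the ligase that marks p27 for destruction, at -0.22 with age in Tert+/+ kidneys (adjusted p = 0.285), and Rnf123, a second p27 ligase, at -0.25 for genotype at 47 weeks (adjusted p = 0.730).

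Polycomb proteins and other regulators of the INK4 genes gave no pass in limma or edgeR among 23 tested genes. Of 115 results, 14 (12.2%) had an unadjusted p under 0.05, near the 9.81% of all genes. DESeq2 gave 2 passes, 1 with age in Tert+/+ kidneys and 1 with age in G3 Tert-/- kidneys. In these comparisons it passed 211 and 530 of all genes. Kdm6b, a demethylase that removes the Polycomb mark, was 78.6 to 147 in young and 53.5 to 73.9 in old Tert+/+ kidneys, without overlap. The log2 difference of Kdm6b was -0.66 (SE 0.18, adjusted p = 0.0996 in limma and 0.0292 in DESeq2), beside 1.25% of all genes with old kidneys wholly below young ones. Tbx3, a repressor of the INK4 locus, gave a log2 difference of 0.75 for genotype at 47 weeks (SE 0.21, adjusted p = 0.356), with the higher mean in G3 Tert-/- kidneys.

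Of 26 listed proliferation genes, 20 were tested. Whether the cell cycle was blocked was not tested. Top2a, the topoisomerase of dividing cells, fell with age in both genotypes, by 0.99 in Tert+/+ (SE 0.22, adjusted p = 0.0331) and by 1.09 in G3 Tert-/- kidneys (SE 0.22, adjusted p = 0.00721). In Tert+/+ kidneys it was 84.9 to 116 when young and 33.2 to 65.0 when old, and in G3 Tert-/- kidneys 68.1 to 118 when young and 25.6 to 62.3 when old, so the ages did not overlap in either genotype, as for 1.25% of all genes wholly lower with age in Tert+/+ and 2.66% in G3 Tert-/- kidneys. Rrm2, a subunit of ribonucleotide reductase, fell with age in G3 Tert-/- kidneys by 1.33 (SE 0.36, adjusted p = 0.0495), and that pass held in 10 of 29 alternatives, and in 4 of the 20 fits that left out 1 library (-1.44 to -1.18, adjusted p = 0.0328 to 0.138). Rrm2 was 10.8 to 19.1 in young and 3.07 to 6.23 in old G3 Tert-/- kidneys. The old ones had 26 reads of it in all, near the limit of counting. Over the 20 genes, 17 differences with age were negative in G3 Tert-/- kidneys, with a median of -0.46, and 13 in Tert+/+ kidneys, with a median of -0.19. With age in G3 Tert-/- kidneys 8 of the 20 had an unadjusted p under 0.05, beside 14.9% of all genes. In Tert+/+ kidneys 3 had, beside 10.6%. In limma 2 passed in G3 Tert-/- kidneys, beside 2.24% of all genes, and 1 in Tert+/+ kidneys, beside 0.649%. edgeR passed 3 and DESeq2 4 in G3 Tert-/- kidneys, and each passed 1 in Tert+/+ kidneys. Of all genes, DESeq2 passed 530 in G3 Tert-/- and 211 in Tert+/+ kidneys. Between the genotypes none passed at either age in limma, edgeR or DESeq2, with 2 genes at an unadjusted p under 0.05 at 7 weeks, beside 10.7% of all genes, and 1 at 47 weeks, beside 6.58%. At 7 weeks 17 of the 20 genotype differences were positive, with a median of 0.25, and at 47 weeks 10 were, with a median of -0.001. For the interaction 15 of the 20 were negative, with a median of -0.39, and none passed by any of the 3 tools. The fall of Top2a in Tert+/+ kidneys passed in 21 of 30 alternatives, and in G3 Tert-/- kidneys in all 30. In Tert+/+ kidneys it did not pass without both libraries that stood apart (-0.96, adjusted p = 0.0732), nor without any 1 of young replicates 1, 3, 4 and 5 and old replicates 1, 3, 4 and 5 of that genotype (-1.05 to -0.85, adjusted p = 0.0509 to 0.113).

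Lmnb1 encodes lamin B1 (chromosome 18, 56707813 to 56753424, plus strand). In young Tert+/+ kidneys it was 104, 109, 70.4, 75.8 and 62.3, and in young G3 Tert-/- kidneys 78.1, 74.4, 83.8, 75.6 and 99.7. It was 79.8, 76.8, 81.8, 99.1 and 83.5 in old Tert+/+ kidneys and 87.7, 67.5, 64.4, 84.8 and 45.5 in old G3 Tert-/- kidneys. The lowest value of all 20 was in an old G3 Tert-/- kidney, but 2 of the 5 mice of that group, at 87.7 and 84.8, lay above 4 of the 5 old Tert+/+ mice, and all groups overlapped.

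Means of Lmnb1 were 84.4 ± 20.98, 82.3 ± 10.4 and 84.2 ± 8.69 in young Tert+/+, young G3 Tert-/- and old Tert+/+ kidneys, and 70.0 ± 17.1 in old G3 Tert-/- kidneys (SD, n = 5 each). Old G3 Tert-/- kidneys differed from old Tert+/+ kidneys by -0.29 (SE 0.18, 95% interval -0.66 to 0.07, adjusted p = 0.819) and from young G3 Tert-/- kidneys by -0.26 (95% interval -0.63 to 0.11, adjusted p = 0.537). Neither difference of Lmnb1 passed, and both intervals include 0. Genotype at 7 weeks gave -0.01 (adjusted p = 0.992) and age in Tert+/+ kidneys 0.03 (adjusted p = 0.976).

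Around lamin B1, 15 genes of the nuclear lamina and of its partners were tested, and 1 passed in 1 comparison, in limma, edgeR and DESeq2 alike. In that comparison, age in G3 Tert-/- kidneys, 2.24% of all genes passed in limma. Over all comparisons 5 of 75 results (6.67%) had an unadjusted p under 0.05, beside 9.81% of all genes. Syne1, which encodes nesprin-1 and ties the nuclear envelope to the cytoskeleton, rose with age in G3 Tert-/- kidneys by 0.56 (SE 0.14, adjusted p = 0.0295). Its values were 384, 375, 426, 256 and 512 in young and 534, 527, 519, 590.3 and 653 in old G3 Tert-/- kidneys, and the ages did not overlap, as for 1.94% of all genes with old kidneys wholly above young ones. This pass held in 24 of 30 alternatives, and was lost without any 1 of young replicates 1, 2 and 4 and old replicates 4 and 5 of G3 Tert-/- (0.42 to 0.56, adjusted p = 0.0605 to 0.0948). The lamins Lmna and Lmnb2 gave -0.07 and -0.04 in the same comparison (adjusted p = 0.906 and 0.962).

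Glb1 encodes the lysosomal beta-galactosidase whose activity is stained as a mark of senescence (chromosome 9, 114401076 to 114474898, plus strand). It was highest in young and lowest in old G3 Tert-/- kidneys. Young Tert+/+ kidneys had 582, 703, 594, 664 and 679, and young G3 Tert-/- kidneys 777, 799, 716, 796 and 589.5. Old Tert+/+ kidneys had 678, 635, 638, 662 and 659.9, and old G3 Tert-/- kidneys 538, 471, 517, 485 and 477. The highest old G3 Tert-/- kidney, at 538, was below the lowest of the other 15 libraries, at 582, while the other 3 groups overlapped with one another. The share of all genes with such a gap to the other 15 libraries was not counted.

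The means of Glb1 were 735 ± 88.1 in young G3 Tert-/-, 655 ± 17.8 in old Tert+/+, 644 ± 53.7 in young Tert+/+ and 498 ± 28.7 in old G3 Tert-/- kidneys (SD, n = 5 each). With age in G3 Tert-/- kidneys Glb1 fell by 0.56 on the log2 scale (SE 0.09, 95% interval -0.75 to -0.36, adjusted p = 0.00131), so that young kidneys held 1.48 times the level of old ones. In that comparison 1.31% of all genes fell and 2.66% had old kidneys wholly below young ones. The fall passed in all 30 alternatives, at -0.63 to -0.51, and was -0.56 (adjusted p = 0.000507) without both libraries that stood apart. In Tert+/+ kidneys the same difference was 0.03 (SE 0.09, 95% interval -0.17 to 0.22, adjusted p = 0.951).

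At 47 weeks Glb1 was lower in G3 Tert-/- than in Tert+/+ kidneys by 0.40 on the log2 scale (SE 0.09, 95% interval -0.59 to -0.21), a ratio of 1.32 between the means. The genotypes did not overlap, as for 1.44% of all genes wholly lower in old G3 Tert-/- kidneys. Glb1 ranked 30 of 14630 by p in that comparison and did not pass (adjusted p = 0.142), though DESeq2 (adjusted p = 0.0126) and limma with a weight per library (adjusted p = 0.00876) passed it. At 7 weeks it was higher in G3 Tert-/- kidneys by 0.19 (SE 0.09, 95% interval -0.01 to 0.38, adjusted p = 0.475). The difference between those genotype effects, tested in the same model, was -0.58 (SE 0.13, 95% interval -0.85 to -0.31), with rank 5 by p and an adjusted p of 0.507, while DESeq2 gave 0.0326. The difference between genotypes in the change of Glb1 with age thus did not pass in limma.

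Groups accounted for 78.4% of the variance of log2 Glb1 over the 20 libraries. For the other 5 tested genes the share was 38.7% for Cdkn2c, 32.3% for Cdkn1b, 19.3% for Cdkn2d, 18.6% for Lmnb1 and 9.1% for Hmgb1, and the median of all genes was 20.2%. Tmppe, a small gene on the same strand within Glb1, had 0.916% of its count or less.

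**Figure D3:**
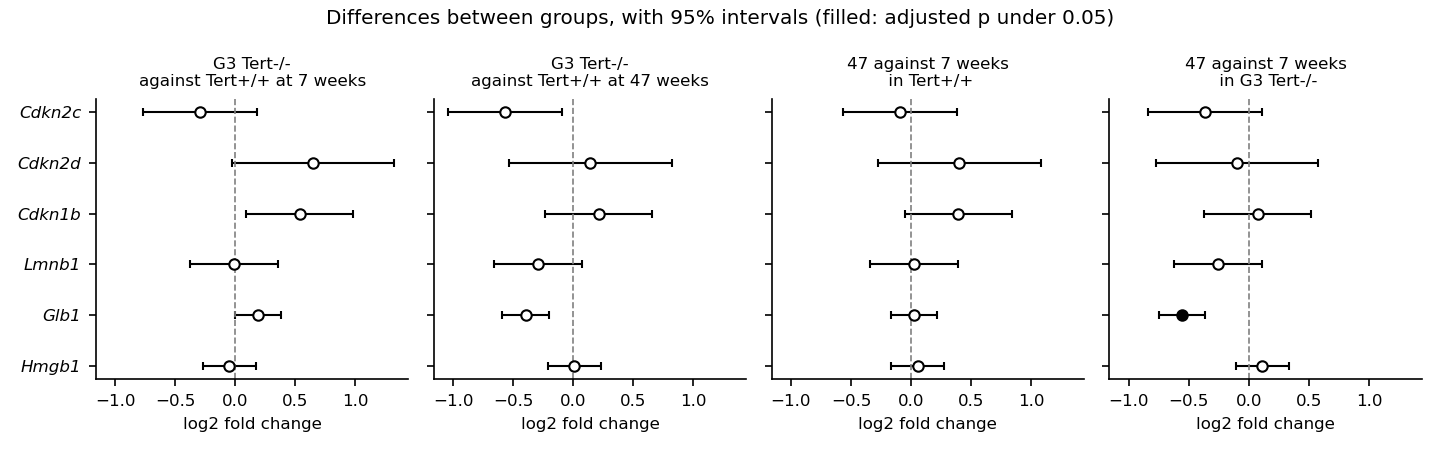
Log2 fold changes (horizontal axis, with 95% intervals from limma) of the 6 tested genes in the 4 comparisons, 1 panel each; a filled point has an adjusted p under 0.05. Only Glb1 with age in G3 Tert-/- kidneys is filled, at -0.56.

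Since Glb1 was the gene that passed, its promoter is shown, with that of Gusb, the other lysosomal hydrolase that fell with it. Each run is the 250 bases before the RefSeq start on GRCm38.p6, 5′ to 3′ on the gene's strand, at chr9:114400828-114401077 for Glb1 on the plus strand and at chr5:130003050-130003299 for Gusb on the minus strand. Capitals mark CACGTG, which is its own reverse complement and is the core of the element bound by TFEB, a transcription factor of lysosomal genes.
Glb1: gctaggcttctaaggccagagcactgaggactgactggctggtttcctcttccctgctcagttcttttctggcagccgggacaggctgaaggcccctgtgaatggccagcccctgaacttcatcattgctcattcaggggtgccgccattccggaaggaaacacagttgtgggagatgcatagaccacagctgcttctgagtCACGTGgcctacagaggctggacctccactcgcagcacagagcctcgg
Gusb: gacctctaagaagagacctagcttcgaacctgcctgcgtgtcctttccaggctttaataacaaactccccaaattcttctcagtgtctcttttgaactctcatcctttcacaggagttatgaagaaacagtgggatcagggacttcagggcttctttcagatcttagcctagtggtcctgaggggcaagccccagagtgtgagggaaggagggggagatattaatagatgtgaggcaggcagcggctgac
The Glb1 promoter held CACGTG 1 time, with its first base 48 bases before the start, and the Gusb promoter did not hold it in this window. Among all 32851 mouse promoters of this length 6.02% held it. Among 24 promoters from Glb1 and the listed lysosomal genes, 7 did (29.2%). These 24 belong to 20 genes, some with more than 1 promoter, and 7 of the 20 genes (35.0%) held it. The list has 26 genes, Tfeb itself among them, so some listed genes had no promoter in this count. These are matches of letters, not measured sites.

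Glb1 protein works in a complex with the products of Ctsa and Neu1 in the lysosome, and 25 genes of that complex and of other lysosomal hydrolases and membrane proteins were tested. Gusb, which encodes beta-glucuronidase, fell with age in G3 Tert-/- kidneys by 0.81 (SE 0.14, adjusted p = 0.00251), beside 2.24% of all genes passing there, and was the only one of the 25 to pass in limma and edgeR. It was 137, 145, 167, 144 and 143 in young and 99.3, 93.1, 71.7, 65.4 and 94.0 in old G3 Tert-/- kidneys, without overlap, as for 2.66% of all genes. In Tert+/+ kidneys its difference with age was -0.10 (SE 0.14, adjusted p = 0.861), and the difference between the effects was -0.71 (SE 0.20, adjusted p = 0.743). DESeq2 passed 2 of the 25 with age in G3 Tert-/- kidneys, where it passed 530 of all genes, and 1 in Tert+/+ kidneys, where it passed 211. Over all comparisons 28 of 125 results (22.4%) had an unadjusted p under 0.05, beside 9.81% of all genes. For genotype at 47 weeks 8 of the 25 had, beside 6.58%.

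The partners of Glb1 did not pass with age in G3 Tert-/- kidneys. The log2 differences there were -0.27 for Ctsa (adjusted p = 0.232), the protective protein of the complex, and -0.13 for Neu1 (adjusted p = 0.750), its sialidase. They were -0.24 for Psap (adjusted p = 0.223), the precursor of the saposins, and -0.21 for Galns (adjusted p = 0.591), a sulfatase. Over the 25 genes, 18 differences were negative with a median of -0.15 in G3 Tert-/- kidneys, and 16 with a median of -0.09 in Tert+/+ kidneys, beside medians of 0.003 and 0.004 over all genes. An unadjusted p under 0.05 was found for 9 of the 25 in G3 Tert-/- kidneys, beside 14.9% of all genes, and for 3 of the 25 in Tert+/+ kidneys, beside 10.6%.

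**Figure D4:**
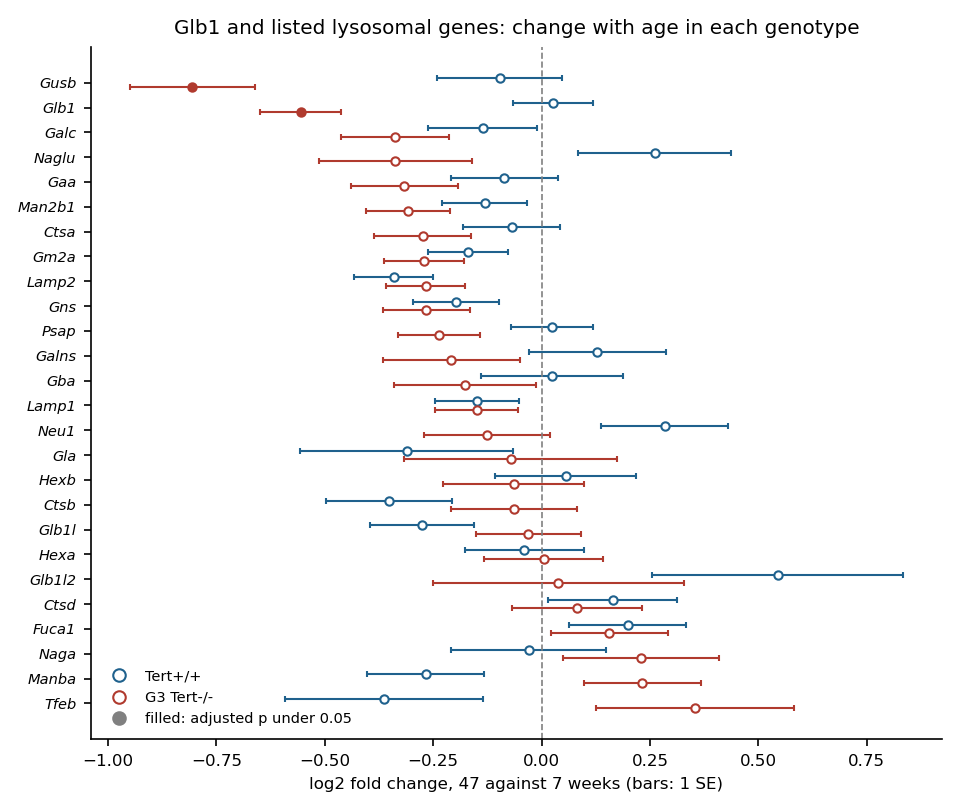
Log2 fold change with age (horizontal axis, 47 against 7 weeks, bars 1 SE) of Glb1 and the 25 tested lysosomal genes (rows) in Tert+/+ (blue) and G3 Tert-/- kidneys (red), ordered by the latter; filled points have an adjusted p under 0.05. Gusb and Glb1 in G3 Tert-/- kidneys, at -0.81 and -0.56, are the filled points.

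Of 6 markers of the proximal tubule, a segment rich in lysosomes, 2 fell with age in G3 Tert-/- kidneys, beside 1.31% of all genes. The 6 summed to 40200 to 49590 in young and 36850 to 41850 in old G3 Tert-/- kidneys, with none at 0, and 3 of the 6 differences were negative and 3 positive. Slc5a2, the glucose transporter SGLT2, fell by 0.58 (adjusted p = 0.0338) and Slc22a6, the anion transporter OAT1, fell by 0.69 (adjusted p = 0.0399). In Tert+/+ kidneys the 6 summed to 44290 to 59460 when young and 38380 to 46610 when old, with none passing in limma. The 7 macrophage markers summed to 882 to 1240 in young and 1091 to 1584 in old G3 Tert-/- kidneys, all 7 with positive differences. None passed in limma, and C1qb passed in edgeR and in DESeq2, which passed 530 of all genes there. The 4 markers of the thick ascending limb and distal tubule all had positive differences, and 1 passed in limma, beside 2.24% of all genes. It was Slc12a3, the thiazide-sensitive salt transporter, which rose by 0.62 (adjusted p = 0.00251). The 4 summed to 15650 to 24370 in young and 21910 to 32700 in old G3 Tert-/- kidneys. Of the 4 fibroblast and pericyte markers 3 had negative differences and 1 a positive one, and 1 fell in limma, beside 1.31% of all genes. It was Col1a1, a collagen chain, which fell by 1.80 (adjusted p = 2.07e-06). The 4 summed to 1154 to 2159 in young and 808 to 1096 in old G3 Tert-/- kidneys. Slc12a3 rose and Col1a1 fell with age in Tert+/+ kidneys as well, by 0.57 (adjusted p = 0.0109) and by 1.17 (adjusted p = 0.00137). In that comparison 0.649% of all genes passed. None of these tubule, fibroblast and macrophage markers was at 0 in any group. The part of these cell types in the fall of Glb1 was not tested.

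Hmgb1 encodes the chromatin protein HMGB1, which acts as an alarm signal outside the cell (chromosome 5, 149046702 to 149184489, minus strand), and was the least variable of the set between groups. It was 1029, 1361, 1334, 1300 and 1483 in young Tert+/+ and 1390, 1327, 1309, 943 and 1333 in young G3 Tert-/- kidneys. In old Tert+/+ kidneys Hmgb1 was 1365, 1368, 1249, 1323 and 1410, and in old G3 Tert-/- kidneys 1363, 1319, 1419, 1236 and 1422. Apart from 1 low mouse in each young group the values lay between 1236 and 1483.

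Means of Hmgb1 were 1301 ± 167, 1261 ± 179.8, 1343 ± 60.8 and 1352 ± 77.5 in young Tert+/+, young G3 Tert-/-, old Tert+/+ and old G3 Tert-/- kidneys (SD, n = 5 each). The 4 log2 differences were -0.05 for genotype at 7 weeks (95% interval -0.27 to 0.17), 0.01 for genotype at 47 weeks (-0.21 to 0.23), 0.05 for age in Tert+/+ (-0.17 to 0.28) and 0.11 for age in G3 Tert-/- kidneys (-0.11 to 0.33). Their adjusted p-values ran from 0.692 to 0.994. Each interval leaves room for a log2 change of no more than 0.33 in size. Hmgb1 has processed copies elsewhere in the genome, and 9 of these in the table summed to 3.98% to 8.46% of its count, so reads of the copies and of the gene may be mixed. Of 12 tested genes of the HMG families and of HMGB1 receptors none passed by limma, edgeR or DESeq2, with 10 of 60 results (16.7%) at an unadjusted p under 0.05, beside 9.81% of all genes. Ager, the receptor RAGE, was higher in old than young Tert+/+ kidneys by 1.07 (SE 0.38, adjusted p = 0.270), from a mean of 9.47 to 17.4, and Xpo1, the nuclear export receptor, gave 0.55 for the difference of genotype effects (adjusted p = 0.774).

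In place of Il6, 15 genes of related cytokines and of their signalling were tested, and none passed by limma, edgeR or DESeq2, with 10 of 75 results (13.3%) at an unadjusted p under 0.05, beside 9.81% of all genes. Clcf1, a ligand of the family, was higher in young G3 Tert-/- than young Tert+/+ kidneys by 1.12 (SE 0.31, adjusted p = 0.417), from a mean of 5.53 to 12.6, without overlap, beside 0.602% of all genes higher in that way. Jak1, a kinase of their receptors, was lower there by 0.32 (adjusted p = 0.435).

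Other factors secreted by senescent cells, 28 of 43 tested, gave no pass in limma or edgeR. DESeq2 passed 2, both with age in G3 Tert-/- kidneys, where it passed 530 of all genes. Of 140 results, 19 (13.6%) had an unadjusted p under 0.05, beside 9.81% of all genes. With age in G3 Tert-/- kidneys 21 of the 28 differences were positive, with a median of 0.21, and in Tert+/+ kidneys 18, with a median of 0.15. Between the genotypes 14 were positive at 7 weeks and 18 at 47 weeks, with medians of -0.002 and 0.17. Serpine2, a protease inhibitor, was 199 to 276 in young and 277 to 343 in old G3 Tert-/- kidneys, without overlap, as for 1.94% of all genes, and its difference of 0.46 (SE 0.13, adjusted p = 0.0598) passed in 9 of 30 alternatives. Tgfb1, the main profibrotic cytokine, was lower in young G3 Tert-/- than young Tert+/+ kidneys by 0.81 (SE 0.26, adjusted p = 0.435), with means of 30.8 and 59.1, and Tert+/+ young replicate 1, which stood apart, had 115. Beside these factors, S100a9, a neutrophil gene, rose with age in G3 Tert-/- kidneys by 2.22 (SE 0.49, adjusted p = 0.0153), where 2.24% of all genes passed. The 3 neutrophil markers with values summed to 14.7 to 38.6 in young and 46.7 to 232 in old G3 Tert-/- kidneys. In Tert+/+ kidneys they summed to 8.80 to 148 when young and 28.6 to 55.5 when old. The part of neutrophils in these values was not tested.

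For each tested gene, the 3 named genes with the most similar pattern were sought among 12491 genes, by Pearson's r of log2 values over the 20 libraries. For Glb1 these were Psap (r = 0.84, 0.86 without the 2 libraries that stood apart), Slc18a1 (0.84 and 0.86) and Pex14 (0.83 and 0.84), the first of them a lysosomal gene. Cdkn2c was most like Mtus1 (0.71), Por (0.70) and Gpihbp1 (0.70), and Lmnb1 most like Chm (0.79), Nsdhl (0.76) and Stx2 (0.75).

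The closest patterns to Cdkn1b and Cdkn2d leaned on the libraries that stood apart. Cdkn1b was most like Foxk1, Glb1l2 and Rps23 (r = 0.93, 0.93 and 0.92), which became 0.80, 0.77 and 0.75 over the other 18 libraries. Cdkn2d was most like Rnaset2a, Rnaset2b and Hcfc1 (0.92 each), which became 0.65, 0.64 and 0.695. Rnaset2a and Rnaset2b are near-identical copies, so their counts are not independent. Hmgb1 was most like Fam126b, Hspd1-ps3 and Lmbrd2 (0.88, 0.88 and 0.87), with Spearman's rho of only 0.38, 0.46 and 0.39. These are the highest of many values and describe these libraries only.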

How the data were processed

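Whole-kidney RNA of 20 mice was sequenced from the 3′ end on the sense strand (QuantSeq kit), with 300 ng of input RNA and quality scores of 5.0 to 7.5 (mean 6.6), per the labels' protocols. Per the submitters' processing notes, which give no roles, the tools include HTSeq 0.6.1 and TopHat2 2.0.10, with DESeq2, SAMtools 0.1.19, Bowtie 1.0.0 and FastQC 0.11.7, and the build is GRCm38. The deposited signal holds normalized read counts, which the authors appear to have made by dividing reads by 1 size factor per library: 100% of the values in every library were whole multiples of 1 step (tolerance 1e-06), so whole reads were recovered for the count tests. Strand-specific counting is named in the labels' protocols, and reads of near-identical copies could still be split or lost.

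Groups came from the genotype and age in the labels. Replicate numbers follow the order of listing and pair no mice. Within groups, the 40 pairs of libraries differed by more than counting error (chi-square per degree of freedom 3.59 to 86.57). Genes with a normalized count of 10 or more in at least 5 libraries (14630 of 19940) were fitted as log2(normalized count + 1) with limma 3.58.1 in R 4.3.3, with an intensity trend and 4 group means over all 20 libraries. Log2 differences are on that scale, which understates changes of low genes. Two-sided p-values were adjusted by the Benjamini-Hochberg method, per comparison, over the 14630 genes, and an adjusted p under 0.05 passed. The script was tested on simulated data. Limits that rest on 3 reads cover counting error only. Alternatives were edgeR 4.0.16 and DESeq2 1.42.0 on the recovered reads, other scaling, pseudocounts of 0.5 and 5, other filters, 2 groups only, weights per library and leaving out libraries.

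The members and gene lists were chosen with earlier results of these data known. From each pathway list the text names the genes that passed, up to 4 per comparison, or else the 2 with the smallest p, and for each tested member the 3 genes with the highest r. Ctsa, Neu1, Psap, Galns, Lmna, Lmnb2 and the markers were named after their values were seen. Coordinates are from GENCODE M21 on GRCm38, and promoters from RefSeq on GRCm38.p6. Cdkn2a and Il6 were not analysed here.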

Additional observations from a re-analysis of the deposited data

Results flagged for a closer look

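In groups of 5 mice, 1 value was looked for that lay far from the other 4, by Dixon's criterion, in 100 groups (25 genes in 4 groups), of which chance gives about 1 in 20, and 9 were found. Cdkn2b was 14.9 in G3 Tert-/- young replicate 4, where the other mice had 2.14 to 5.65, and 23.9 in G3 Tert-/- old replicate 3, where they had 4.04 to 6.34. Cdkn1b was 127 in Tert+/+ young replicate 1, beside 231 to 256. Hmgb1 was 943 in G3 Tert-/- young replicate 4, the library that was high for Cdkn2b, beside 1310 to 1390. Gusb was 167 in G3 Tert-/- young replicate 3, beside 137 to 145, and 146 in Tert+/+ old replicate 2, beside 119 to 127. Jak1 was 2010 in Tert+/+ old replicate 4, beside 1550 to 1660. Tgfb1 was 115 in Tert+/+ young replicate 1, beside 34.5 to 51.1, and 57.6 in G3 Tert-/- old replicate 5, beside 26.4 to 31.7. Of the 9 values, 3 came from the 2 libraries that stood apart on the first principal component.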

How the results depend on the processing

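No paired analysis was possible because the labels give the mice no replicate numbers, and the numbers used here only name libraries. Of 990 results of the 7 measured members under alternatives, 946 kept their direction and side of the threshold, 3 passed where the main test did not and 41 changed sign, all of them in differences that did not pass. The 3 were Glb1 for genotype at 47 weeks with DESeq2 and with array weights and for the interaction with DESeq2, so that 1 member passed there in place of 0. Depth limits Cdkn2b, with 129 reads in all. The causes of the changes below were not tested.

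Genes passing at 7 weeks between genotypes numbered 0, and 13 with DESeq2 and 1 with array weights; at 47 weeks 14, and 52 with DESeq2, 6 with only the 2 groups and 95 with array weights. With age in Tert+/+ kidneys 95 passed, and 211, 53 and 367 in the same 3 settings. In G3 Tert-/- kidneys 327 passed, and 530 with DESeq2, 1007 with array weights and 661 without both libraries that stood apart. For the interaction 1 passed, and 7, 2 and 0 in those settings. Leaving out 1 library at a time gave 0 to 2, 2 to 19, 56 to 125, 192 to 497 and 0 to 2 genes in these 5 comparisons. The number of members passing stayed 0, 0, 0, 1 and 0 in all 20 of these fits. The count of 497 came without Tert+/+ young replicate 1, and the count of 192 without G3 Tert-/- old replicate 5.

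For genotype at 47 weeks, array weights and leaving out both libraries turned Cdkn2d to -0.045 and -0.075 and Cdkn1b to -0.019 and -0.018, and array weights turned Hmgb1 to -0.008. For genotype at 7 weeks Lmnb1 became 0.020 scaled to library totals, 0.063 with array weights and 0.076 without both libraries, and Cdkn2b became 0.029 without both. For age in Tert+/+ kidneys Lmnb1 became -0.004 in edgeR and -0.001 in DESeq2, Glb1 -0.004 with array weights and -0.013 without both, and Hmgb1 -0.022 without both.

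Leaving out 1 library at a time moved Cdkn2d between -0.075 and 0.268 for genotype at 47 weeks and between -0.223 and 0.000 for age in G3 Tert-/- kidneys. It moved Cdkn1b between -0.018 and 0.334 and between -0.023 and 0.153 in the same comparisons. Lmnb1 lay between -0.108 and 0.091 for genotype at 7 weeks and between -0.073 and 0.126 for age in Tert+/+ kidneys, where Glb1 lay between -0.009 and 0.059. Hmgb1 lay between -0.131 and 0.052, -0.017 and 0.040, -0.027 and 0.104, and -0.043 and 0.140 for genotype at 7 and 47 weeks, age in Tert+/+ kidneys and the interaction. Cdkn2b lay between -0.440 and 0.146 for genotype at 7 weeks and between -0.382 and 0.174 for age in Tert+/+ kidneys.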
